A study of Drosophila melanogaster with 12 samples.

Results

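The control eye disc of the wandering Drosophila melanogaster larva is described here as a ranked list of gene levels. The control group holds 3 of the 12 samples of the series, and its 15904 gene rows are all the gene rows of the authors' table of control against activated Ras. The group was taken by its label and every row was kept, so no measured value chose the rows. The gene lists and many of the named genes were chosen with results of these data known. RNA came from 30 pairs of dissected eye discs per sample, with ribosomal RNA removed before sequencing. Control larvae were w1118 with sev-GAL4 over UAS-GFP and with the allele dco2 over a wild-type chromosome. The sev-GAL4 driver is active in the sevenless-expressing cells of the disc, while the RNA was taken from whole discs. Levels from the remaining groups are printed only where they bear on how far a control level can be read. All of those carried sev-GAL4, UAS-GFP and UAS-RasV12, an activated Ras. The first also carried dco2, the next an RNAi construct against the noncoding RNA hsrω, and the last EP3037, which the label gives as raising hsrω.

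The larval eye disc is a folded epithelium in which a wave of differentiation, the morphogenetic furrow, crosses from posterior to anterior. Ahead of it lie dividing progenitors that express the retinal determination genes, and behind it lie rows of photoreceptor clusters that are recruited cell by cell through Egfr and Sevenless signalling. Visual pigments and the light-response machinery are assembled later, in the pupa. The disc is joined to the antennal disc and covered by a thin peripodial layer, and glia enter it through the optic stalk.

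Each level is an FPKM value, a fragment count divided by transcript length and library size, which the authors made for the group as a whole. The 3 samples stand behind a single value, so no SD, interval or test can be given, and the order of neighbouring genes is not separated by any measured spread. Depth is unknown because FPKM carries no read total. In RNA from whole discs, fewer cells of a type and less RNA per cell cannot be told apart. The control value of every row was the same in the 3 tables that hold it, with 0 differences.

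Of the 15904 rows, 9213 (57.9%) stood at 1 FPKM or more, 4490 lay above 0 but under 1, and 2201 were listed at 0. Among the classes counted here, the one from 10 to under 100 FPKM was the fullest. There were 4877 rows from 10 to under 100 FPKM and 3614 from 1 to under 10, against 588 from 100 to under 1000 and 134 at 1000 or more. Protein-coding rows, 12569 in number, reached 1 FPKM in 7913 cases (63.0%) and had a median of 4.31 FPKM. Their levels formed a peak and a long lower shoulder. In steps of equal width on the log scale, 2968 coding rows lay from 10 to under 31.6 FPKM, 1291 from 1 to under 3.16, and 1308 from 0.316 to under 1.

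**Figure D1:**
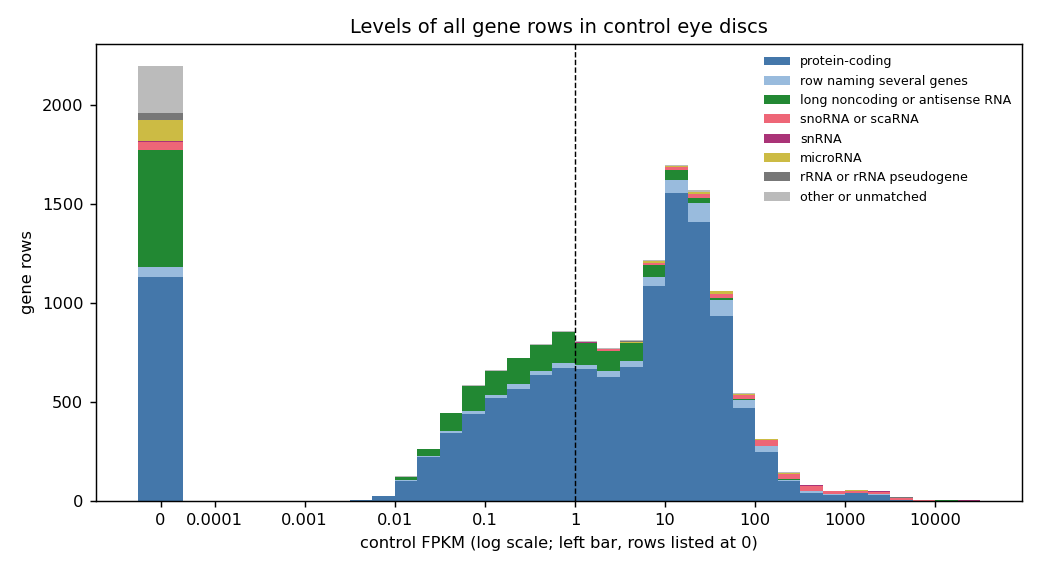
Histogram of control FPKM (log scale, x axis) over all gene rows (y axis, number of rows), coloured by kind of gene, with rows listed at 0 in the separate bar on the left and a dashed line at 1 FPKM. Coding rows peak between 10 and 31.6 FPKM, and 2201 rows of all kinds are listed at 0.

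Summed FPKM was held by few rows. The 10 highest rows held 20.1% of it, the 100 highest 51.9% and the 1000 highest 81.0%, and 91 rows were enough for 50%. The 134 rows at 1000 FPKM or more held 57.5%, while the 4490 rows between 0 and 1 held 0.183%. Among coding rows alone, 160 held 50% of their own sum. These are shares of summed FPKM, not of reads, since FPKM divides by length and raises short genes.

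All 6 marker genes of the disc were present, and each had at least 78.9% of coding rows below it. The transcription cofactor and phosphatase gene eya (chromosome 2L, 6527447 to 6546976, minus strand) was at 111 FPKM, with 96.7% of coding rows below it. Its partner so, a homeodomain factor (chromosome 2R, 7419350 to 7434872, plus strand), was at 54.1 FPKM. The proneural gene ato (chromosome 3R, 8278052 to 8279274, plus strand), which founds the R8 photoreceptor, was at 47.8 FPKM. The neuronal RNA-binding protein gene elav (chromosome X, 509235 to 523226, minus strand) was at 41.8 FPKM. The Pax6 gene ey (chromosome 4, 697689 to 721173, plus strand) was at 32.6 FPKM. The gene of the receptor tyrosine kinase Sevenless, sev (chromosome X, 11071441 to 11086299 on the minus strand), stood at 22.6 FPKM, the lowest of the 6. These markers go with the labelled tissue. Exons of elav overlap those of arg and lncRNA:enrr in the annotation, and exons of sev overlap asRNA:CR44358. Whether reads were counted by strand is not given in the sources used here, so reads of such neighbours cannot be told apart.

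**Figure D2:**
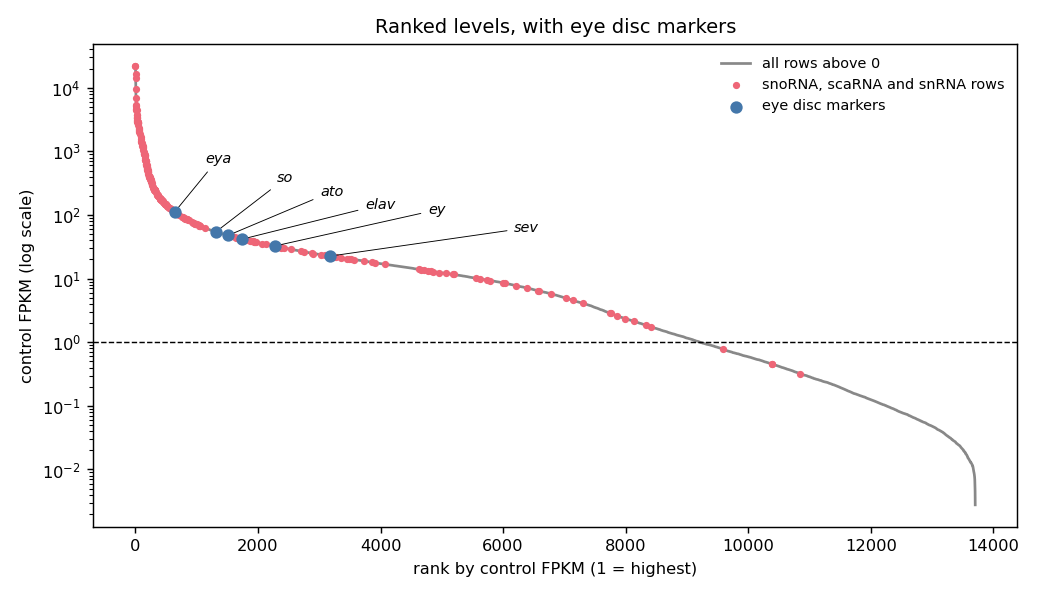
Control FPKM (log scale, y axis) of every row above 0 against its rank (x axis, 1 is the highest), with snoRNA, scaRNA and snRNA rows in red and the 6 eye disc markers in blue. The markers lie between rank 641 (eya) and rank 3181 (sev), below the small noncoding RNAs at the top of the curve.

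Every gene of the retinal determination list was above 5 FPKM. The 13 rows ran from 5.49 to 298 FPKM, with a median of 32.6 against 2.41 over all rows. The homeodomain gene hth, which is also expressed in the antennal disc and the peripodial layer, was highest at 298 FPKM. It was followed by toy, the Pax6 gene that acts above ey, at 210, and by eya. The nuclear factor dac was at 59.5 FPKM and the pipsqueak-domain genes danr and dan were at 58.2 and 28.5. Lower were the zinc-finger gene tsh at 19.7 FPKM, the Pax gene eyg at 14.4, the homeodomain gene Optix at 13.1 and the row CR33987,tio at 10.5. The lowest was toe, a neighbour and relative of eyg, at 5.49 FPKM.

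Genes of the furrow and of proneural patterning stood higher still as a group, with a median of 53.8 FPKM over 19 rows and 18 of them at 10 or more. The HLH repressor emc, a brake on proneural proteins, was at 207 FPKM. The Hedgehog effector ci was at 184 FPKM, against 23.9 for the ligand hh and 37.8 for the receptor ptc. Genes of the Bearded family were high, with E(spl)malpha-BFM at 185, Brd at 180 and E(spl)m4-BFM at 80.3 FPKM. The repressors E(spl)mdelta-HLH, E(spl)mgamma-HLH, E(spl)m8-HLH and E(spl)mbeta-HLH lay together between 53.8 and 75.5 FPKM. Beside ato, its partner da was at 42.9 FPKM, the repressor h at 41.5 and sca, a secreted spacing factor, at 40.6. The ligand dpp was lowest of those at 10 or more, at 22.8 FPKM. The only member under 1 FPKM was amos, the proneural gene of olfactory sense organs, at 0.677.

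Photoreceptor fate genes were all present, and none reached 100 FPKM. Their 23 rows had a median of 13.4 FPKM. The Ets repressor aop was at 68.1 FPKM and the row CG4434,pnt, which holds the Ets activator it opposes, at 38.4. The zinc-finger gene gl, needed for photoreceptor differentiation, was at 48.1 FPKM. The Bar genes B-H2 and B-H1 of R1 and R6 were at 37.1 and 24.0 FPKM, and lz, the Runx factor of the second recruitment wave, at 28.9. In the R7 pathway the ligand gene boss, made by R8, was at 1.84 FPKM while its receptor sev was at 22.6. The downstream genes sina and phyl were at 27.6 and 10.5 FPKM, and pros, a factor of R7 and cone cells, was at 3.28. The R8 gene sens was at 8.85 FPKM, ro of R2 and R5 at 7.63, the row CG44037,svp at 9.26 and salm at 11.6. The genes boss and run, at 1.84 and 1.86 FPKM, were the lowest of the list.

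The vision genes split into a measured part and a part near 0. Of 28 phototransduction rows 14 were at 1 FPKM or more, 12 lay between 0 and 1, and 2 were listed at 0. Over all rows 57.9% were at 1 FPKM or more, and over coding rows 63.0%, so the count alone does not set this list apart. All 7 opsin genes were under 1 FPKM. Rh2 and Rh3 were listed at 0, and ninaE, Rh4, Rh5, Rh6 and Rh7 lay between 0.289 and 0.719 FPKM. The light-gated channel genes trp and trpl were at 0.190 and 0.0261 FPKM, and the arrestins Arr1 and Arr2 at 1.31 and 0.170. Signalling enzymes were higher, with norpA, the phospholipase C, at 19.4 FPKM, the diacylglycerol lipase inaE at 9.93, the diacylglycerol kinase rdgA at 9.84 and the protein kinase C inaC at 7.91. The G protein row CG45086,Galphaq was highest at 46.8 FPKM, in a row that names a second gene. Exons of inaD, a scaffold gene at 2.46 FPKM, overlap those of RpL23, itself at 3439.

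**Figure D3:**
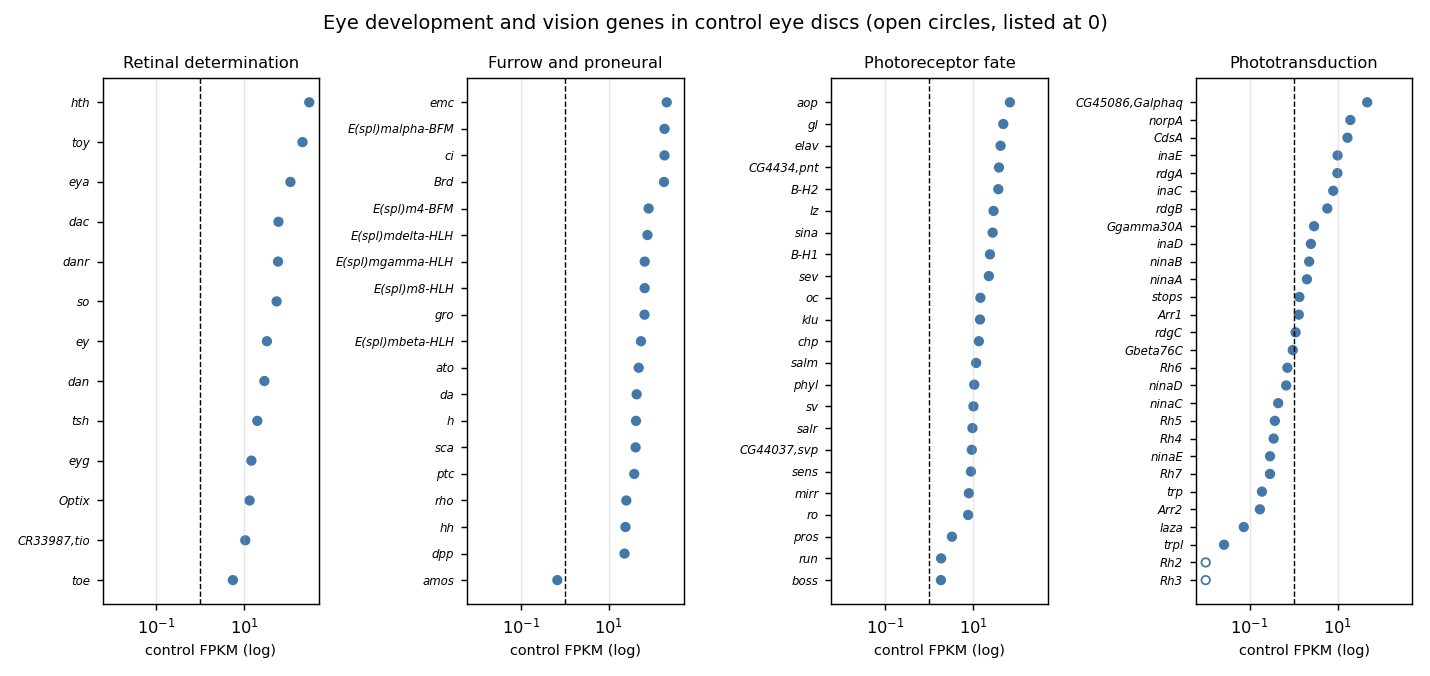
Control FPKM (log scale, x axis) of each row in 4 eye gene lists, ordered by level within a list, with open circles for rows listed at 0 and a dashed line at 1 FPKM. Retinal determination rows lie between 5.49 and 298 FPKM. Of 28 phototransduction rows 14 lie at 1 FPKM or more, beside 63.0% of all coding rows.

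Lens and pigment genes held both kinds. Of 21 rows 15 were at 1 FPKM or more, beside 63.0% of all coding rows. The chitin-binding protein gene Gasp was at 167 FPKM and the row CG32795,w at 53.4. That row names the gene white, which fly transgenes commonly carry as a marker, so its reads can come from a transgene as well. The gene pr, of pteridine synthesis, was at 45.1 FPKM. The granule genes lt, g, rb, dor, p, ca, ltd and car ran from 32.1 down to 6.84 FPKM, and the ommochrome pathway genes cd, st, cn and v were at 1.90, 0.645, 0.492 and 0.169. The lens protein genes Cry (crystallin), Cpr72Ec and retinin were at 0.0374, 0.337 and 0.406 FPKM.

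Signalling pathways of the disc were measured nearly whole. All 18 Notch pathway rows and all 17 Hippo pathway rows were at 1 FPKM or more, as were 24 of 25 Egfr and Ras rows, with medians of 33.2, 37.7 and 29.5. Over all coding rows the share at 1 FPKM or more was 63.0% and the median 4.31. In the Notch list the glycosyltransferases O-fut1 and fng were at 120 and 111 FPKM, the receptor N at 92.9 and the ligands Dl and Ser at 60.2 and 25.4. The transcription factor Su(H) was lowest at 8.71 FPKM. Among Egfr ligands spi was at 133 FPKM, grk at 8.24 and vn at 7.02, and the row Krn,Ndfip was at 29.5. The receptor Egfr was at 61.5 FPKM and the kinases phl (Raf), Dsor1 (MEK) and rl (ERK) were at 15.6, 22.7 and 79.8. The rhomboid-family gene stet was the exception in that list, at 0.883 FPKM. In the Hippo list the inhibitor of apoptosis th was highest at 154 FPKM and sd, the DNA-binding partner of yki, was at 115. The casein kinase gene dco, of which these larvae carried the allele dco2, was at 37.7 FPKM.

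All 35 cell cycle rows were at 1 FPKM or more, beside 63.0% of all coding rows. Their median was 36.8 FPKM. The mitotic kinase polo was at 119 FPKM, the phosphatase stg at 106, PCNA at 91.6, the cyclins CycB and CycA at 89.6 and 82.9, and the inhibitor dap at 70.3. CycG was highest at 217 FPKM, and twe, the meiotic relative of stg, lowest at 4.11. Of 19 apoptosis rows 15 reached 1 FPKM, beside the same 63.0% of all coding rows. The caspases Ice (Drice), Nc (Dronc) and Dcp-1 were at 42.1, 34.1 and 25.9 FPKM. Among the activators of death, W (hid) was at 28 and rpr at 15.4 FPKM, while skl and grim were at 0.622 and 0.270. The caspases Damm and decay were at 0.471 and 0.0219 FPKM.

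Protein synthesis filled the top of the coding ranks. Cytosolic ribosomal protein rows made up 68 of the 100 highest coding rows and held 20.3% of all summed FPKM. The 93 rows of this list include genes named only as relatives, such as RpL24-like at 125 FPKM and RpLP0-like at 39.3. Of the 93 rows 83 were at 100 FPKM or more and 61 at 1000 or more, with a median of 1399 FPKM. The highest was RpL41 at 11776 FPKM, in 7th place of all rows and with the shortest reading frame of the family. RpS29, RpL23 and RpL29 were at 4444, 3439 and 2937 FPKM. Ef1alpha48D, the elongation factor that brings tRNA to the ribosome, stood second among coding rows at 4844 FPKM. All 26 translation factor rows were above 10 FPKM. They included eIF-4a at 1727, eIF-5A at 1520 and EF2 at 1368 FPKM. The 73 mitochondrial ribosomal protein rows formed a narrower and lower band from 7.53 to 111 FPKM with a median of 25.8. The highest of them, CG10602,mRpL13, names a second gene, and the next was mRpS5 at 101 FPKM. Of 87 rows for nuclear genes of the respiratory chain 63 were at 10 FPKM or more, with the row CG1746,mir-4949 at 1013 and ATPsyn-beta at 324.

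Copies within housekeeping families differed widely in level. Act5C and Act42A, the cytoplasmic actins, were at 2329 and 433 FPKM, while the muscle actins Act87E, Act88F and Act79B were at 5.88, 1.04 and 0.0518. A further muscle actin, in the row Act57B,snoRNA:660, stood between them at 46.8 FPKM. Among beta-tubulins betaTub56D was at 1936 FPKM, betaTub60D at 248, betaTub97EF at 15.5 and the row Task7,betaTub85D, which holds the testis form, at 1.07. Among alpha-tubulins alphaTub84B was at 1715 FPKM, alphaTub84D at 90.3, alphaTub85E at 3.75 and alphaTub67C at 0.752. Ef1alpha100E, the other elongation factor 1 alpha gene, was at 25 FPKM against 4844 for Ef1alpha48D. Ribosomal protein pairs were of both kinds. In some, 1 copy was near 0. RpS28b was at 2453 FPKM and RpS28a at 1.48, RpS5a was at 1867 and RpS5b at 0.997, RpS19a was at 943 and RpS19b at 2.16, and RpL37a was at 2652 with RpL37b listed at 0. Likewise RpS10b was at 1017 FPKM and RpS10a at 0.382, and RpL10Ab was at 574 and RpL10Aa at 0.230. In other pairs both copies were high. RpL34b and RpL34a were at 1382 and 240 FPKM, and RpS15Aa and RpS15Ab at 1824 and 93.4. The adjacent RpS14a and RpS14b were at 623 and 386 FPKM, near-identical copies whose separate values are uncertain. Of 48 proteasome rows 31 lay between 66.4 and 190 FPKM, and the other 17 were at 9.39 or less. Those included variant copies such as Prosalpha4T1 at 0.0282, Prosalpha6T at 0.0581 and Rpt4R at 0.332. They also included both rows named Prosalpha1, listed at 0, although the subunit belongs to every proteasome core.

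Further abundant coding genes came from several classes. Hsp23, a small heat shock protein gene, was at 2427 FPKM, in 20th place among coding rows. The constitutive chaperones Hsc70-4 and Hsp83 were at 1341 and 835 FPKM, while the inducible Hsp70 rows ran from 0 to 12.2 and are near-identical copies. Among RNA-binding proteins Hrb27C was at 545 FPKM and sqd at 307. The long noncoding RNA Hsromega was at 543. The glycolytic genes Gapdh2 and Eno were at 433 and 226 FPKM, and lactate dehydrogenase, ImpL3, was the lowest of the 12 glycolysis rows at 17.4. The glutathione transferases GstD1 and GstS1 were at 415 and 323 FPKM. Of the ecdysone-response genes ImpE2, an apical protein of disc eversion, was at 991 and br at 260 FPKM, whereas Eip93F, a later factor, was at 1.05. The odorant-binding protein gene Obp99a was at 327 FPKM, apart from its family, whose median over 47 rows was 0.167. Obp99a and CG2852, the highest coding gene known only by a number (1112 FPKM), were named after their values were seen.

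**Figure D4:**
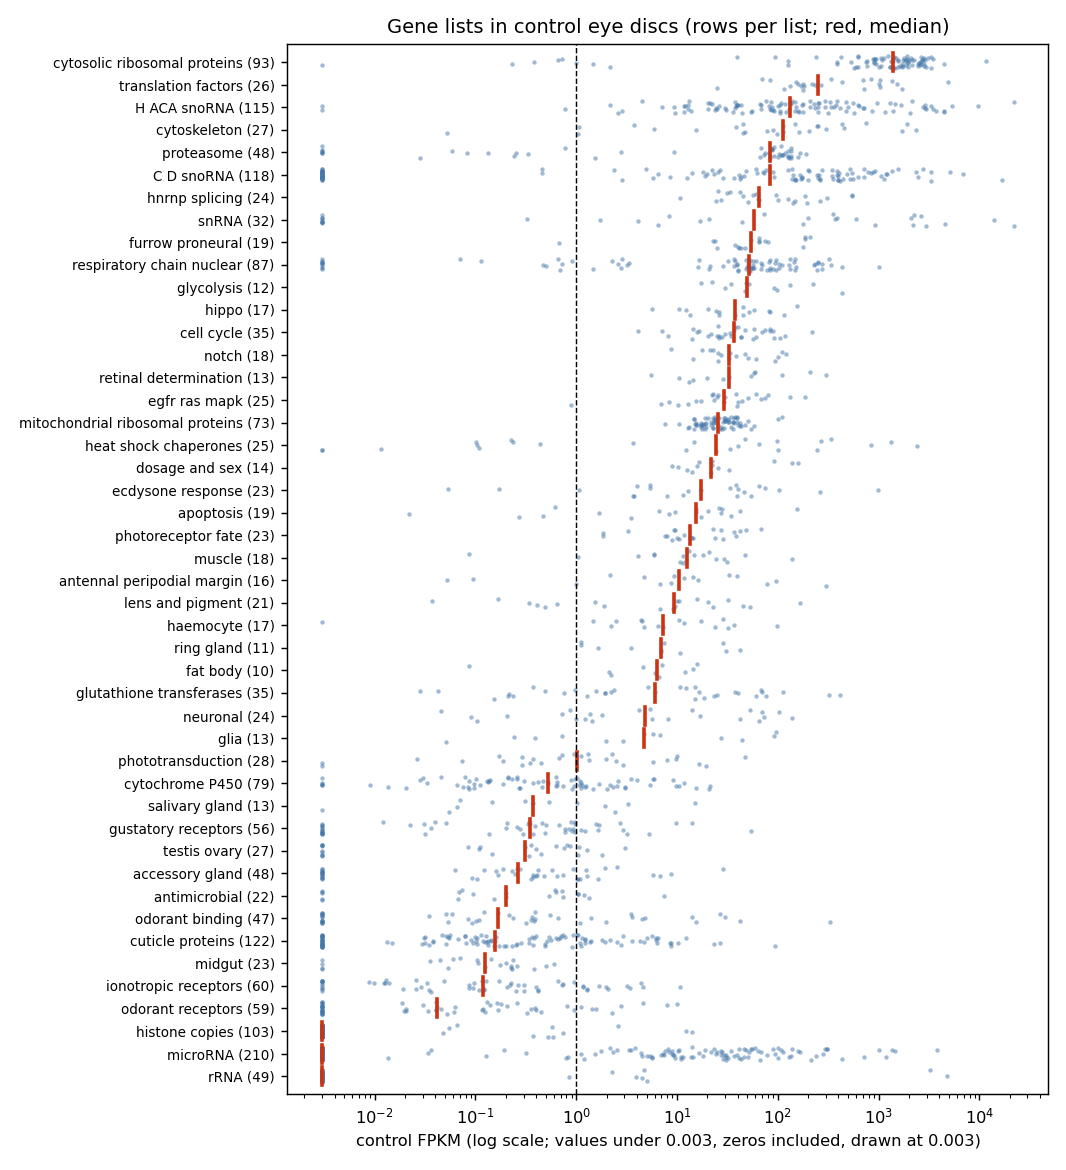
Control FPKM (log scale, x axis) of every row in each gene list, lists ordered by their median (red bar), with the number of rows in brackets and values under 0.003, zeros included, drawn at 0.003. Cytosolic ribosomal protein rows have the highest median, 1399 FPKM, and histone, microRNA and rRNA rows have a median of 0.

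The 6 highest rows were all noncoding RNAs. This order holds for FPKM, which divides by length: snoRNA rows held 22.4% of summed FPKM, but 2.21% once FPKM was multiplied by annotated length. Of the 100 highest rows 49 were coding, 27 were snoRNA or scaRNA, and 8 were snRNA. The modification guide snoRNA:Psi18S-1820 was highest at 22043 FPKM. It was followed by snRNA:7SK, which holds back transcription elongation, at 22020.5 FPKM and by RNaseMRP:RNA, the RNA of an rRNA-processing enzyme, at 19499. Next came snoRNA:Or-CD10 at 16679, the spliceosomal snRNA:U4:39B at 14152 and the long noncoding CR34335 at 12528. The row CR40962, which did not match the annotation, was at 11145. RNaseP:RNA, which trims tRNA precursors, was at 5248 FPKM. The 115 H/ACA snoRNA rows, which guide pseudouridylation, had a median of 131 FPKM with 112 at 1 or more. The 118 rows of C/D snoRNAs, which guide methylation, had a median of 83.1 with 30 listed at 0. Both kinds of guide act mostly on ribosomal RNA. Among the C/D rows 11, and among the H/ACA rows 2, name several genes, so their levels are not those of snoRNAs alone. Of these, 4 are also counted as ribosomal protein rows. Long noncoding and antisense RNAs were mostly low, with 466 of 1871 rows (24.9%) at 1 FPKM or more and a median of 0.140.

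Some short RNAs were high in 1 group of the series and listed at 0 in another. Of 206 rows annotated under 200 nt and at 100 FPKM or more in any of the 4 groups, 45 (21.8%) were listed at 0 in at least 1 group, 24 of them in the control. Among 593 longer rows the count was 1 (0.169%). The intron-derived mir-1003 stood at 3804 FPKM in controls, was listed at 0 with activated Ras alone and with the hsrω RNAi construct, and stood at 1464 with EP3037. The other way round, snoRNA:Me28S-C788a was listed at 0 in controls and stood at 548 FPKM with activated Ras alone. CR40469, a noncoding RNA annotated at 214 nt, had 2249 FPKM in controls and 27.8, 22.2 and 31 elsewhere, and no other group came near its control level. These rows were named after their values were seen.

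Some zeros cannot be read as absence. Histone genes lie in a repeated cluster, and 92 of 103 histone rows were listed at 0 although the cell cycle genes were present. Likewise 41 of 49 rRNA rows were listed at 0 after removal of ribosomal RNA. At the same time the rRNA pseudogene rows CR40677 (30 nt) and CR41609 were at 4816 and 3254 FPKM, in 15th and 29th place of all rows, and CR41609 was listed at 0 in 2 other groups. The repeated snRNA:U6:96Ac was listed at 0. The microRNA list had 109 of 210 rows at 0. Near-identical copies and very short transcripts are common to these lists and their levels are uncertain. The sequencing library was not a small-RNA library, so reads on microRNA rows need not be mature microRNAs.

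At the lower end lay gene families of other organs. For the counts in this paragraph, 63.0% of all coding rows were at 1 FPKM or more and the rest under 1, with a median of 4.31. Odorant, gustatory and ionotropic receptor rows had medians of 0.0419, 0.346 and 0.118 FPKM over 59, 56 and 60 rows, with 51, 44 and 48 of them under 1. Of 27 germline and gonad rows 22 were under 1 FPKM, and AGO3, a piRNA pathway gene, was highest at 3.07. Of 122 cuticle protein rows 89 were under 1 FPKM, against Cpr51A at 95 and Cpr49Ac at 27.0. Of 79 rows with a cytochrome P450 name (Cyp) 50 were under 1 FPKM. Cytochrome P450 genes under other names, such as spok at 42.0 FPKM, sad at 30.8 and phm at 28.4, are not among them. The antimicrobial peptide and immune list had 17 of 22 rows under 1, with Drs highest at 7.48 FPKM.

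Markers of other tissues were read as a check on dissection. For comparison, 63.0% of all coding rows were at 1 FPKM or more, and the coding median was 4.31 FPKM. None of 23 midgut digestive enzyme rows reached 1 FPKM, the highest being Mal-A1 at 0.606. Salivary gland rows were under 1 FPKM in 8 of 13 cases, with the glue gene Sgs7 highest at 15.1. Fat body rows were mostly present, 9 of 10 at 1 FPKM or more with a median of 6.35, above the coding median. Lsp1gamma and Lsp2 were at 14.3 and 12.1. With its removed entries the fat body list had 10 of 12 rows at 1 FPKM or more and a median of 5.32. All 11 ring gland rows were at 1 FPKM or more, or 11 of 13 with the entries put back that were taken out after their values were seen. The ecdysone-synthesis genes spok, sad and phm were at 42.0, 30.8 and 28.4 FPKM, and Akh, a hormone of the gland's neurosecretory cells, at 6.93. The lowest were spo and Cyp6t3 at 1.13 and 1.11. Haemocyte rows had a median of 7.29 over 17 rows, with PPO1 and PPO2 at 37.0 and 24.1 FPKM, Hml at 7.29 and NimC4 listed at 0. In that list lz is also a photoreceptor gene, and the highest row, PPO3,l(2)k09913 at 97.6 FPKM, names a second gene. Muscle rows had a median of 12.7 over 18 rows, with Mhc, the muscle myosin, at 11.4, and 3 of the rows are also in the cytoskeleton list. The highest muscle row, Msp300,snmRNA:128,snmRNA:158,snmRNA:765, names several genes and was at 138 FPKM, so it alone makes up much of that list's sum. The summed level of each list was 3.78 FPKM for midgut, 25.2 for salivary gland, 71.0 for fat body, 140 for ring gland, 293 for haemocytes and 400 for muscle, and how much RNA of other tissues the samples held was not tested.

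Cell types that belong to the disc were seen at varied levels. For the counts below, 63.0% of all coding rows were at 1 FPKM or more, and the coding median was 4.31. The glial transcription factor repo was at 4.66 FPKM, the septate junction genes Gli and nrv2 were at 91.5 and 95.8, and the early factor gcm, in the row CG31709,gcm, was at 0.241. These junction genes are not particular to glia. The glial list had 9 of 13 rows at 1 FPKM or more with a median of 4.66, and 13 of 17 with a median of 6.78 when its removed entries were kept. Of 24 neuronal rows 17 were at 1 FPKM or more, with a median of 4.83. The adhesion genes Fas2 and Nrg were at 140 and 103 FPKM, and elav at 41.8. Synaptic vesicle and active zone genes ranged widely, with Csp and unc-13 at 72.4 and 70.2 FPKM, nSyb, brp and Syt1 at 8.23, 5.67 and 4.22, and Rim at 0.869. Exons of unc-13 overlap those of CR43361, asRNA:CR43425 and asRNA:CR44029, so its level may hold reads of these neighbours. The channel genes cac, para, Sh and Shab were at 1.78, 1.38, 0.992 and 0.103 FPKM, and the transmitter genes Gad1 and VGlut at 0.0893 and 0.0451. Of 16 antennal, peripodial and margin rows 14 were at 1 FPKM or more, with a median of 10.6. Below hth came bowl at 95.2 FPKM, drm at 77.6, Dll at 39 and wg at 32.7. Lim1 was at 14.5 FPKM, ss at 8.81, al at 6.71, C15 at 4.68, ap at 2.18 and os at 1.01. The trunk Hox genes Ubx and Antp were at 0.0951 and 0.0519.

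The genomic position of coding rows showed a feature that the ranking did not use. On chromosome 4, the small and largely heterochromatic autosome, 71 of 78 coding rows (91.0%) were at 1 FPKM or more, with a median of 57.9 FPKM among these. On the arms 2L, 2R, 3L and 3R together, 6529 of 10489 (62.2%) reached 1 FPKM, with a median of 13.9. The X chromosome had 1313 of 1979 (66.3%) and a median of 14.2. Chromosome 4 held RpS3A at 423 FPKM, ATPsyn-beta at 324, toy at 210, ci at 184 and eIF4G at 178, along with ey. Of 23 coding rows on the Y chromosome 21 were listed at 0 and the highest, fdy, was at 0.0835 FPKM. Several of these rows matched the same gene, as for kl-3, WDY and PRY, so they stand for fewer genes than rows. The dosage compensation RNAs roX1 and roX2, made in males, were at 137 and 91.5 FPKM. The labels used here do not give the sex of the larvae. Genes are not independent replicates, so these shares carry no test.

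**Figure D5:**
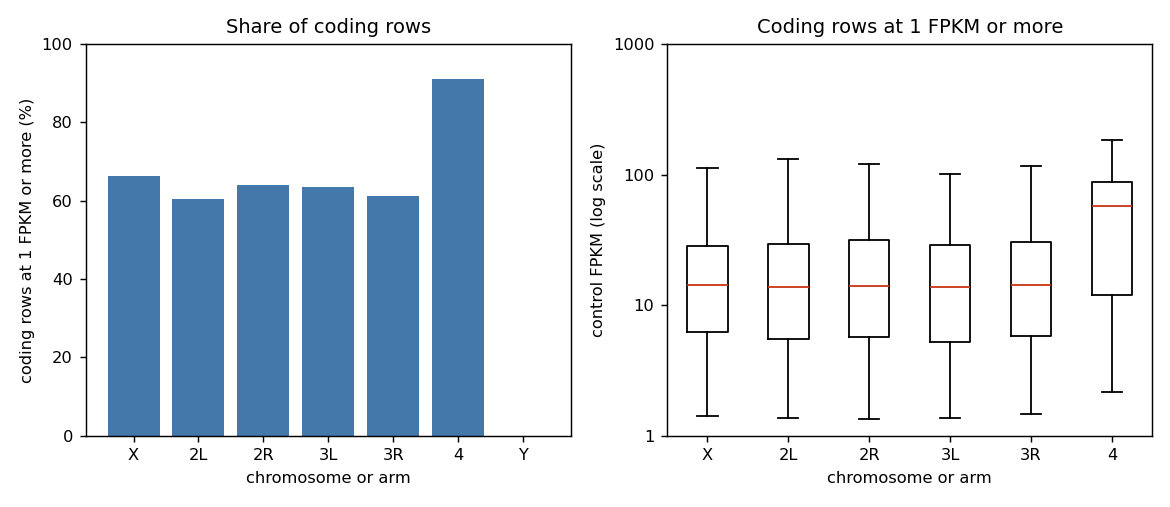
Left, share of protein-coding rows at 1 FPKM or more (y axis, percent) on each chromosome or arm. Right, control FPKM (log scale, y axis) of those rows, with boxes for the quartiles, red lines for the median and whiskers from the 5th to the 95th percentile. Chromosome 4 stands at 91.0% with a median of 57.9 FPKM, and no coding row of the Y chromosome reached 1 FPKM.

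Structure and naming of the coding genes varied with level as well. Median annotated length rose from 935 nt for rows listed at 0, through 1472 nt under 1 FPKM and 1765 nt from 1 to under 10, to 2279 nt from 10 to under 100. It fell to 1701 nt from 100 to under 1000 and 900.5 nt at 1000 or more, the class that ribosomal proteins fill. FPKM is itself computed with length, so the measures are not independent. Genes with a single exon made up 36.2% of coding rows listed at 0 and 8.58% of those from 10 to under 100 FPKM. Over all coding rows the share was 16.2%. The share of coding genes known only by a CG number was 65.3% at 0, 49.6% from 1 to under 10, 26.6% from 10 to under 100 and 8.87% from 100 to under 1000, against 43.0% of all coding rows. CG2852 was the only such gene among the 72 coding rows at 1000 FPKM or more.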

How the data were processed

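Levels in 3 control samples were read from the authors' tables as FPKM. Per the submitters' processing notes, TopHat, Bowtie, Cufflinks and Cuffdiff 2.1.1 were used with build dm6. Their annotation, filters and strand setting were not found in the labels. The authors deposited 1 FPKM value per gene row and group, pooled over samples, so depth per sample is unknown and no test, SD or interval was computed.

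Rows were ranked and counted in classes with Python 3.11.15 and pandas 2.3.3. The counting was tested on simulated data. Names were matched with a locus overlap to Ensembl release 115 (BDGP 6, dm6 coordinates): 14955 of 15267 single-gene rows matched. The 637 rows with several genes are printed with all names. Length is that of the longest annotated transcript. Coordinates are from the annotation. Authors' loci can span a host gene.

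Members and 46 lists were chosen with earlier results of these data known. Afterwards, with the values already seen, 9 entries judged not to mark their tissue, or of unsure role, were removed from the fat body, glia and ring gland lists, and name patterns of the cuticle, cytochrome P450, accessory gland, rRNA and snoRNA lists were redrawn. Lists of transfer RNA and mitochondrial genome rows matched no row. Genes were named by a rule that covers the 6 markers, the 10 highest rows, the 15 highest coding rows, the 5 highest noncoding rows of at least 200 nt, the 3 highest and 2 lowest of each list, and members of eye lists. Not every gene under the rule is printed, and further genes were chosen for their role after their values were seen. Promoter motifs were planned but not analysed here, because no genome sequence was used.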

Additional observations from a re-analysis of the deposited data

How the results depend on the processing

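No paired analysis was possible because the deposited values are pooled over the samples of a group, and for the same reason no replicate could be left out. Control values were the same in all 3 tables that hold them, so counts from the other tables could not differ and check nothing. Rows with status OK alone held 43 rows at 0 in place of 2201, since rows without enough data for the authors' test were left out. With annotated length of 200 nt or more, chosen after seeing the data, 85 rows in place of 134 reached 1000 FPKM. Rows above 0 and under the floor numbered 1450 with a floor of 0.1 FPKM in place of 4490, also chosen after seeing the data. The other counts of rows in level classes stayed within 1.5 times. Shares of summed FPKM were 20.1% for the 10 highest rows, 51.9% for the 100 highest, 20.3% for cytosolic ribosomal protein, 22.4% for snoRNA and 7.67% for snRNA rows. In that order they were 20.6%, 52.3%, 20.8%, 22.1% and 6.64% with genomic span of 200 nt or more, and 19.4%, 51.7%, 27.7%, 1.65% and 5.69% with annotated length of 200 nt or more. For FPKM multiplied by annotated length, an approximate share of reads, they were 8.27%, 29%, 13.3%, 2.21% and 1.82%. Coding rows alone gave 10.9%, 44.1% and 34.2% for the first 3. Counts of list members at the floor moved beyond 1.5 times in 5 of 46 lists at 0.5 FPKM (antimicrobial, gustatory receptor, histone, midgut, germline) and in 9 at 2 FPKM. Those 9 were the salivary gland (5 to 3), cytochrome P450 (29 to 19), cuticle (33 to 21), accessory gland (12 to 5), antimicrobial (5 to 1), germline (5 to 1), odorant (8 to 5), gustatory (12 to 7) and ionotropic receptor (12 to 6) lists. Chosen by the control value alone, 12.7% of rows under 200 nt and 0.196% of longer rows at 100 FPKM or more were listed at 0 in another group.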

Other observations

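The 5 gene rows whose names a spreadsheet had turned into dates lay between 0.0386 and 61.8 FPKM in the control and are in the counts of rows, under no list. Of the 2201 rows listed at 0 in the control, 1228 were also listed at 0 in the remaining groups, 973 were above 0 in at least 1 of them, and 78 reached 1 FPKM there.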
